A study of Homo sapiens with 4 samples.

Results

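A list of 60 genes of mitosis, among them the kinases and cyclins that drive it, the spindle checkpoint, the kinetochore, the mitotic kinesins and the anaphase machinery, was followed in U87 cells, an established human glioblastoma line. Its members were taken by gene symbol from the authors' deposited table, which held all 60 among its 19749 genes, and all 60 were among the 14812 genes tested. The groups were U87 cells given 5 µM YZ129 for 24 h and U87 cells given DMSO, the vehicle. Each group had 2 libraries of poly(A)-selected RNA. YZ129 is a small molecule that the series title places among inhibitors of the HSP90, calcineurin and NFAT pathway; HSP90 is a chaperone, and calcineurin is the phosphatase that lets NFAT factors enter the nucleus. The comparison asks which transcripts differ after the compound.

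Cells enter mitosis when cyclin B and CDK1 become active together. Aurora and Polo kinases then build the spindle, and kinetochores tie each chromosome to its microtubules. The spindle checkpoint holds back the anaphase-promoting complex until all chromosomes are attached, after which securin and cyclin B are destroyed and the sisters part. Most of these genes are switched on together late in the cell cycle, through a promoter element called CHR (cell cycle genes homology region) and through NF-Y bound to nearby CCAAT boxes. Mitotic genes are known to be strongly expressed in proliferating glioblastoma cells.

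Values are the authors' log2 fold changes ± SE, where -1 is a 2-fold lower level, and a call is an adjusted p under 0.05 in their table. The table holds no value per library, so the spread between libraries is seen only through the SE. Its mean level averages over 8 libraries, although only 4 samples are described. Which of the 8 entered the SE, the intervals and the p-values is not stated, so these may rest in part on libraries outside the 2 groups. No label says whether the libraries within a group were separate cultures. The p-values therefore measure only the spread between libraries, which may be technical. The table does not name its numerator, and its title puts DMSO first. Changes are read here as YZ129 over DMSO from the heat shock genes, which loss of HSP90 function is known to induce. They gave 12 positive calls (50.0%) and 0 negative ones among 24, against 5.24% and 7.64% of all tested genes. The other 12 had no call, among them HSP90AA1 (-0.04) and HSPD1 (0.02). This list was chosen with earlier results of these data known. Under the opposite reading each fall given here is a rise. In bulk RNA, fewer cells in mitosis and less RNA per cell cannot be told apart. As a check of the label, VIM (299000) and CD44 (135000) had high mean levels in the authors' deposited table, GFAP stood at 52.2, and S100B (1.12) and SOX2 (0.851) were near 0. Of the markers of other cell types in that table, the epithelial EPCAM (18.1), CDH1 (1.23) and KRT19 (0.588) and the endothelial PECAM1 (24.6), VWF (14.0) and CDH5 (0.629) had low mean levels. The blood marker PTPRC stood at 2.28, while CD68 (12800) and LCP1 (1210) were high, and the neuronal SNAP25 (716) and SYT1 (408) were present with RBFOX3 at 3.90. The other glial and glioma markers CHI3L1 (4150), SLC1A3 (1890) and NES (909) were present. By the authors' deposited table LCP1 was higher with YZ129 (0.69, adjusted p = 0.000163) and SNAP25 lower (-1.43, adjusted p = 3.97e-15). Glial and glioma markers lower there were SLC1A3 (-1.03, adjusted p = 2.47e-10), NES (-0.59, adjusted p = 0.00201), VIM (-0.46, adjusted p = 0.00659) and CD44 (-0.38, adjusted p = 0.0346). The part of these markers in the results was not tested.

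A minority of the mitotic genes changed, and each of those was lower with YZ129. By the authors' adjusted p, 18 of 60 fell, 0 rose and 42 did not pass. Of all tested genes 7.64% fell and 5.24% rose. Of all calls 59.3% were falls, against 48.1% with fold changes centred on the median of all tested genes and 46.6% centred within 10 bins of mean level. Among the 8998 tested genes within the members' range of mean level, 9.71% fell and 4.31% rose. The median change of the members was -0.23, against -0.05 for all tested genes and -0.10 for those of like level. Of the 60 members 45 had a negative value (75.0%), as did 56.0% of all tested genes and 64.7% of those of like level. Either centring left 14 of the 18 falls: CENPM, SPC25 and KIF15 lost their call in both, SPC24 in the first and NCAPH in the second, and within bins AURKA passed as higher (0.46, adjusted p = 0.0126). At an unadjusted p under 0.05 the counts were 26 lower and 1 higher, which was AURKA, against 14.5% lower and 10.5% higher over all tested genes.

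The falls were spread unevenly in size. TOP2A, CDK1 and UBE2C passed with a fall of more than 1 on the log2 scale, as did 1.17% of all tested genes. Another 11 members fell by 0.5 to 1 and 4 by less than 0.5. The 42 that did not pass ran between -0.42 (CCNA2) and 0.30 (AURKA) in the authors' deposited table, and 24 of them lay within 1 SE of 0. Their 95% intervals reached no lower than -0.77 and no higher than 0.57, so a change of 1 on the log2 scale lay outside all 42 intervals. These intervals rest on folds that had been moderated, that is pulled toward 0. Moderation was seen in genes with 2 reads, and its size at the members' mean levels was not measured. The intervals are therefore not taken to exclude a true change of that size.

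**Figure D1:**
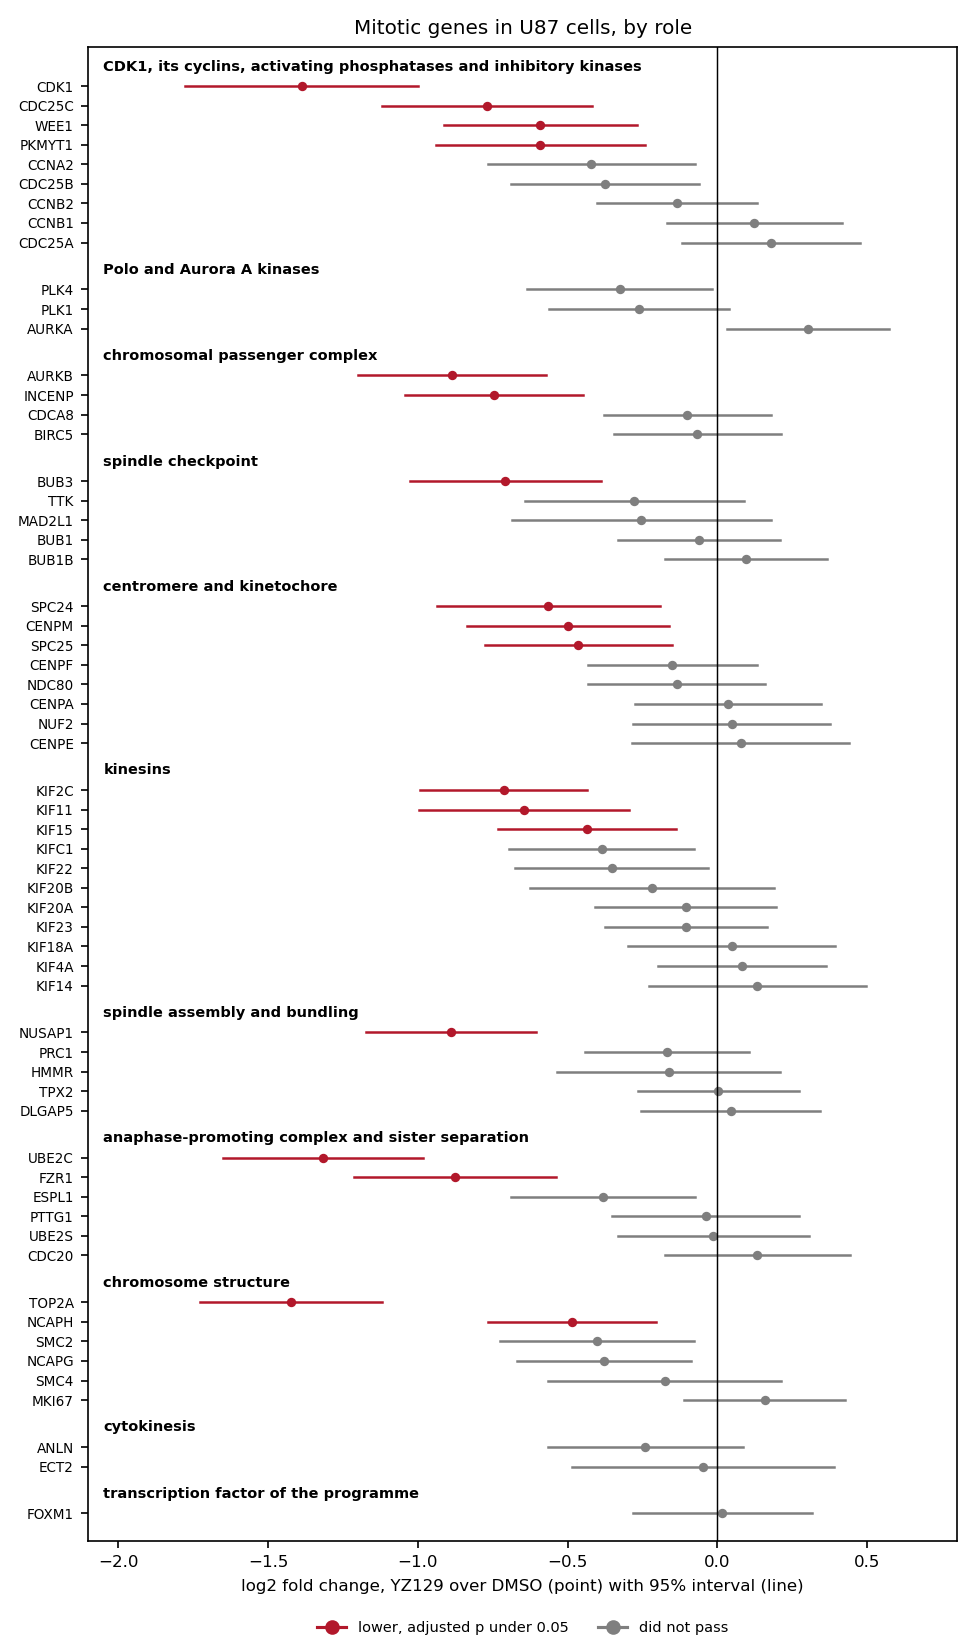
Log2 fold change (YZ129 over DMSO) of the 60 mitotic genes by role; points are the authors' values, lines their 95% Wald intervals, red marks an adjusted p under 0.05. Every red gene lies left of 0, and most role groups hold red and grey genes side by side.

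A CHR core and a CCAAT box were each found in most of the members' promoter windows. Promoter windows from RefSeq (GRCh38.p14, 250 bases before to 50 after each gene's start) were found for 50 of the 60 members. The other 10 were AURKA, BIRC5, BUB3, CENPM, FOXM1, PKMYT1, TPX2, TTK, UBE2C and WEE1. The CHR core was searched as TTTGAA or TTTAAA and the NF-Y box as CCAAT, on both strands; a CHR core and a CCAAT can overlap by a single base at most. Windows with a CHR core made up 71.2% of the members' 66 windows, against 24.0% of all 35116 windows in the table. CCAAT was in 66.7% of the members' windows and in 34.6% of all. Counted per gene over all its starts, a CHR core was found for 11 of 13 members that fell (84.6%) and for 32 of 37 that did not pass (86.5%). The share was 27.9% of all genes with a window and 22.4% of the tested genes with one. CCAAT was found for 10 of those 13 members that fell (76.9%) and for 29 of those 37 that did not pass (78.4%). It was found for 39.7% of all genes with a window and 43.2% of the tested genes with one. In the first listed window of each gene, a CHR core lay within 50 bases of the start in 7 of 13 members that fell (53.8%), in 27 of 37 that did not pass (73.0%) and in 7.75% of all genes. CCAAT lay that close in 1 of 13 members that fell (7.69%), in 10 of 37 that did not pass (27.0%) and in 11.1% of all genes. In the next 50 bases upstream, CCAAT lay in 6 of 13 members that fell (46.2%), in 21 of 37 that did not pass (56.8%) and in 13.5% of all genes. Neither TTTGAA nor TTTAAA was found for AURKB and SPC24, which fell, or for CCNA2, CDC25A, BUB1, KIF22 and UBE2S, which did not pass. Other forms of the CHR element were not searched, so these promoters may still hold one. The members that fell and those that did not pass were not tested against each other. A match is a description of letters, not a shown binding site.

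Windows of the 3 members that fell with the smallest adjusted p among those holding a CHR core, and of the 2 members with the highest adjusted p among those with a window, are printed for comparison, with capitals marking CHR cores and CCAAT on either strand. TOP2A lies at chr17:40417847-40418146 on the minus strand, CDK1 at chr10:60778081-60778380 (plus) and NUSAP1 at chr15:41332631-41332930 (plus). UBE2S lies at chr19:55407739-55408038 (minus) and ECT2 at chr3:172750476-172750775 (plus). CDK1 and ECT2 each have 2 listed starts, of which the first whose window holds a CHR core is shown.
TOP2A: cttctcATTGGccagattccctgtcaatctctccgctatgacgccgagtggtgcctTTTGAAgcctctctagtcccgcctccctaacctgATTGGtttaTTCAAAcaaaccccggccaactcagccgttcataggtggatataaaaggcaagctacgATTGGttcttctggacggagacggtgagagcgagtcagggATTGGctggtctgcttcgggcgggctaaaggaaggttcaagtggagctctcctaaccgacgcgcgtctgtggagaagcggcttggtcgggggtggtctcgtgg
CDK1: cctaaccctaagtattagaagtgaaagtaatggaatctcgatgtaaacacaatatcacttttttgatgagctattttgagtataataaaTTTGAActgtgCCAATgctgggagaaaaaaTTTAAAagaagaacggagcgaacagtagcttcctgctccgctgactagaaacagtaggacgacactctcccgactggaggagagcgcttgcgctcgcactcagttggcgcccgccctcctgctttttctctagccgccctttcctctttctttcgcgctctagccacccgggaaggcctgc
NUSAP1: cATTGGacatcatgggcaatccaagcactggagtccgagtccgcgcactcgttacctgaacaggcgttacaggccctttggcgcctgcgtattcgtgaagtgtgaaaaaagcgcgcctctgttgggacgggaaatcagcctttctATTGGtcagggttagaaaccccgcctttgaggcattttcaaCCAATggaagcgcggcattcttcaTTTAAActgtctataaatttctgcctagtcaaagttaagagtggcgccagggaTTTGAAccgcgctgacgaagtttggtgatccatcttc
UBE2S: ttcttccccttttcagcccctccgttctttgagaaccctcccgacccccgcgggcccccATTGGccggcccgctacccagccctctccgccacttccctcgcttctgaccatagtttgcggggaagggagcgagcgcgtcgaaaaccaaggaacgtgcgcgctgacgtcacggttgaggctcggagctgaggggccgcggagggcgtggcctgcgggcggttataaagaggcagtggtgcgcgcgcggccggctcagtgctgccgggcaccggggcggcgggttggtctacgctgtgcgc
ECT2: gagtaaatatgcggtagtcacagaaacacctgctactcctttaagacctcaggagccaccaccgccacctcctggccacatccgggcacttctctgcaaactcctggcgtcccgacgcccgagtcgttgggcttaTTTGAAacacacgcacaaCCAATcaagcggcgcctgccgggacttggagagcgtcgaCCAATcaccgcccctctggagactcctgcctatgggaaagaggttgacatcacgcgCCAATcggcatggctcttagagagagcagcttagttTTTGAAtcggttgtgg
TOP2A has CHR cores 194 and 151 bases before its listed start and 4 CCAAT matches, and CDK1 has CHR cores 161 and 131 bases before it, on either side of its CCAAT. NUSAP1 has a CHR core 40 bases before the start, 1 lying 13 bases after it, and a CCAAT 64 bases before it. ECT2, which did not pass, has the same kinds of letters, with CHR cores 115 bases before and 34 bases after the start. UBE2S, which did not pass either, has a CCAAT 191 bases before the start and no CHR core in this window.

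**Figure D2:**
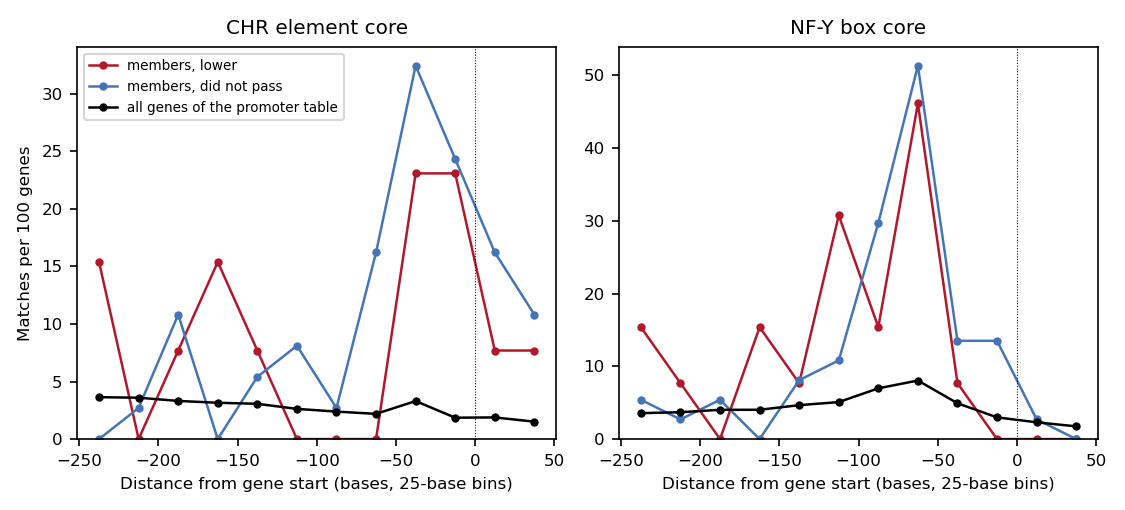
Matches per 100 genes to the CHR core (left) and to the NF-Y box (right), against distance from the gene start in 25-base bins, for 13 members that fell (red), 37 that did not pass (blue) and all 27305 genes of the promoter table (black). Both groups of members peak in the 50 bases before the start for CHR and between 75 and 50 bases before it for the NF-Y box, well above all genes.

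The kinase at the centre of mitotic entry fell, and both B cyclins that it binds did not pass. CDK1 stood at 38.2% of its DMSO level (95% interval 29.2% to 50.0%), a change of -1.39 ± 0.20 with 2.9e-10 as the adjusted p, in the authors' deposited table. CCNB1, cyclin B1, had 0.12 ± 0.15 (adjusted p = 0.66) and CCNB2, cyclin B2, -0.14 ± 0.14 (adjusted p = 0.586) in the authors' deposited table. CCNA2, cyclin A2, which acts with CDK2 and CDK1 from S phase on, had -0.42 ± 0.18 and an adjusted p of 0.0976 there. The 95% interval of CDK1 overlapped that of none of these 3 cyclins.

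An activator and both inhibitory kinases of CDK1 fell. CDC25C, a phosphatase that activates CDK1, had -0.77 ± 0.18 (adjusted p = 0.000434) in the authors' deposited table. WEE1 and PKMYT1, the kinases that hold CDK1 inactive by phosphorylating it, had -0.59 ± 0.16 and -0.59 ± 0.18 there, with adjusted p of 0.00486 and 0.0114. The related phosphatases CDC25B (-0.38 ± 0.16) and CDC25A (0.18 ± 0.15) did not pass, per the authors' deposited table. The intervals of CDC25C (-1.12 to -0.42) and CDC25A (-0.12 to 0.48) did not overlap, and that of CDC25B (-0.69 to -0.06) overlapped both.

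Polo-like kinases and Aurora A did not pass, while the chromosomal passenger complex gave 2 falls among 4 genes (50.0%, against 7.64% of all tested genes). In the authors' deposited table PLK1, the kinase of centrosome maturation and mitotic exit, had -0.26 ± 0.15, PLK4, which starts centriole duplication, -0.33 ± 0.16, and AURKA, the centrosomal Aurora kinase, 0.30 ± 0.14. AURKB, the kinase of the passenger complex that corrects faulty attachments, fell 1.85-fold (-0.89 ± 0.16, adjusted p = 1.6e-06) in the authors' deposited table. INCENP, its scaffold, fell 1.68-fold (-0.75 ± 0.15, adjusted p = 3.52e-05) by the authors' deposited table. The other subunits, survivin (BIRC5, -0.07 ± 0.14) and borealin (CDCA8, -0.10 ± 0.14), were closer to 0 than their SE in the authors' deposited table. The intervals of AURKB and AURKA did not overlap.

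Of the 5 checkpoint genes only BUB3 passed, as a fall (20.0%, against 7.64% of all tested genes). BUB3, which docks the checkpoint kinases on kinetochores, fell 1.63-fold (-0.71 ± 0.16, adjusted p = 0.000353) in the authors' deposited table. Its partners BUB1 (-0.06 ± 0.14) and BUB1B, the BubR1 protein (0.10 ± 0.14), did not pass, and neither did the kinase TTK (-0.28 ± 0.19) or MAD2L1, the Mad2 inhibitor of anaphase (-0.25 ± 0.22), in the authors' deposited table.

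At the kinetochore the falls were modest and affected 3 of 8 genes (37.5%, against 7.64% of all tested genes). SPC24 (-0.56 ± 0.19, adjusted p = 0.0288) and SPC25 (-0.46 ± 0.16, adjusted p = 0.0337), which form one end of the 4-subunit NDC80 complex that grips microtubules, fell in the authors' deposited table. NDC80 (-0.14 ± 0.15) and NUF2 (0.05 ± 0.17), the subunits at the other end, did not pass by the authors' deposited table, and their intervals overlapped those of SPC24 and SPC25. CENPM, a subunit of the inner kinetochore, fell (-0.50 ± 0.17, adjusted p = 0.0338) in the authors' deposited table. CENPA, the centromeric histone H3 variant (0.04 ± 0.16), the kinetochore motor CENPE (0.08 ± 0.19) and CENPF (-0.15 ± 0.14) did not pass there.

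Of the 11 mitotic kinesins 3 fell (27.3%), against 7.64% of all tested genes and 9.71% of those of like level. KIF2C, the microtubule depolymerase MCAK, fell 1.64-fold (-0.71 ± 0.14, adjusted p = 2.17e-05) in the authors' deposited table. KIF11, the Eg5 motor that pushes spindle poles apart, fell 1.57-fold (-0.65 ± 0.18, adjusted p = 0.0047), and KIF15, which can stand in for it, 1.35-fold (-0.44 ± 0.15, adjusted p = 0.0349), per the authors' deposited table. The other 8 ran from -0.39 (KIFC1, a minus-end motor, adjusted p = 0.0878) to 0.13 (KIF14) in the authors' deposited table. KIF18A, which limits chromosome movement, had 0.05 ± 0.18 and the largest adjusted p of these, 0.903; the cytokinesis motors KIF20A (-0.11 ± 0.15), KIF23 (-0.10 ± 0.14) and KIF4A (0.08 ± 0.14) lay near 0 in the authors' deposited table. Among spindle proteins NUSAP1, which bundles microtubules near chromosomes, fell 1.85-fold (-0.89 ± 0.14, adjusted p = 6.5e-08) in the authors' deposited table. TPX2, the activator of Aurora A, stood at 0.00 ± 0.14 (adjusted p = 0.993), and PRC1 (-0.17 ± 0.14), HMMR (-0.16 ± 0.19) and DLGAP5 (0.04 ± 0.15) did not pass, per the authors' deposited table.

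Genes acting with the anaphase-promoting complex were split between its partners. UBE2C, the E2 enzyme that starts ubiquitin chains, stood at 40.1% of its DMSO level (95% interval 31.9% to 50.5%; -1.32 ± 0.17, adjusted p = 1.4e-12) in the authors' deposited table. UBE2S, the E2 that extends them, stood at 99.1% (79.4% to 124%; adjusted p = 0.974), per the authors' deposited table. FZR1, the activator that works from late mitosis into G1, fell 1.84-fold (-0.88 ± 0.17, adjusted p = 1.39e-05) in the authors' deposited table. CDC20, the activator of metaphase, had 0.13 ± 0.16 (adjusted p = 0.649) by the authors' deposited table, and the intervals of both pairs did not overlap. Securin (PTTG1, -0.04 ± 0.16) and separase (ESPL1, -0.38 ± 0.16), the inhibitor and the protease of sister separation, lay above the threshold in the authors' deposited table.

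Of 6 genes of chromosome structure 2 fell (33.3%, against 7.64% of all tested genes). TOP2A, the topoisomerase that untangles sister DNA, stood at 37.3% of its DMSO level (95% interval 30.2% to 46.0%; -1.42 ± 0.15, adjusted p = 1.16e-17) in the authors' deposited table, with a mean level of 16267. Its interval overlapped those of CDK1, UBE2C, AURKB, NUSAP1, FZR1 and CDC25C and of no other member. NCAPH, a condensin subunit, fell (-0.49 ± 0.14, adjusted p = 0.00939), and the condensin subunits SMC2 (-0.40 ± 0.16), NCAPG (-0.38 ± 0.15) and SMC4 (-0.18 ± 0.20) missed the threshold in the authors' deposited table. MKI67, the Ki-67 protein that marks proliferating cells, had 0.16 ± 0.14 (adjusted p = 0.514), and FOXM1, the transcription factor that switches on many of these genes, 0.02 ± 0.15 (adjusted p = 0.964), per the authors' deposited table. The cytokinesis genes ANLN (-0.24 ± 0.17) and ECT2 (-0.05 ± 0.22) did not pass, per the authors' deposited table.

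Whether the authors counted reads by strand is not stated. Of the 18 genes that fell, 7 overlap a gene on the other strand in GENCODE 29, namely CDC25C, PKMYT1, SPC24, SPC25, KIF11, KIF2C and FZR1. UBE2C and BUB3 have annotated pseudogene copies with which reads may be shared. Their part in these results was not tested.

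**Figure D3:**
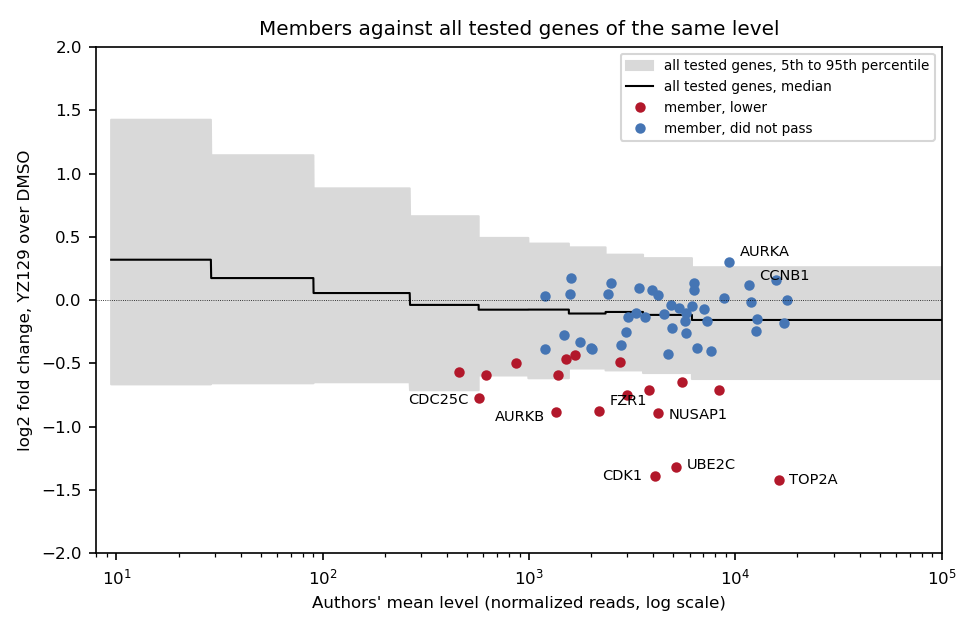
Log2 fold change (YZ129 over DMSO) against the authors' mean level (log axis) for the 60 members, over the median (line) and the 5th to 95th percentile (grey) of all tested genes in 10 equal bins of mean level. CDK1, UBE2C and TOP2A lie furthest below the grey band, and the median line itself moves from 0.32 in the lowest bin to -0.16 in the highest.

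Other genes of the same machinery, listed with earlier results known, are given next by list. Falls numbered 20 (16.7%) and rises 2 (1.67%) among 120 tested genes, the other 98 did not pass, and the median was -0.16. Of all tested genes 7.64% fell and 5.24% rose. Among those within the members' range of mean level 9.71% fell and 4.31% rose. Core subunits of the anaphase-promoting complex and its inhibitor gave 1 call among 15 (6.67%), and it was the inhibitor: FBXO5, or EMI1, fell 2.56-fold (-1.36 ± 0.16, adjusted p = 7.29e-15) in the authors' deposited table. Among 36 other kinetochore and centromere loading genes there were 4 falls (11.1%) in that table. They were MLF1IP (-0.65 ± 0.15), now called CENPU, SKA2 (-0.60 ± 0.21), DSN1 (-0.50 ± 0.15) and CENPI (-0.47 ± 0.16). The 36 include CENPJ, a centriole gene despite its symbol, which did not pass. CENPT, a DNA-binding subunit of the inner kinetochore, rose (0.60 ± 0.17, adjusted p = 0.0044) in the authors' deposited table. The condensin subunits NCAPD2 (-0.56 ± 0.14) and NCAPD3 (-0.48 ± 0.15) were the 2 of 17 condensin and cohesin genes (11.8%) that fell by the authors' deposited table. In the anaphase-promoting, kinetochore, and condensin and cohesin lists the share of falls was near that of all tested genes or of like level.

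Among 29 other spindle, centrosome and cytokinesis genes 5 fell (17.2%), against 7.64% of all tested genes. They were gamma-tubulin TUBG1 (-0.64 ± 0.17), which nucleates microtubules, and the augmin subunits HAUS6 (-0.74 ± 0.19), HAUS2 (-0.67 ± 0.16) and HAUS1 (-0.49 ± 0.16) in the authors' deposited table. FAM83D, a spindle protein, was the other (-0.72 ± 0.14 in the authors' deposited table). Among 23 further mitotic kinases, partners and regulators 8 fell (34.8%) and 1 rose (4.35%), against 7.64% and 5.24% of all tested genes. CKS1B fell (-0.78 ± 0.14, adjusted p = 3.14e-06) and its paralog CKS2 rose (0.54 ± 0.15, adjusted p = 0.00479) in the authors' deposited table; both encode small subunits that bind CDKs, and their intervals did not overlap. Cyclin F (CCNF, -0.83 ± 0.17), the RB relative RBL1 (-0.83 ± 0.18), CDCA3 (-0.74 ± 0.16) and the transcription factor MYBL2 (-0.55 ± 0.15) also fell by the authors' deposited table.

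**Figure D4:**
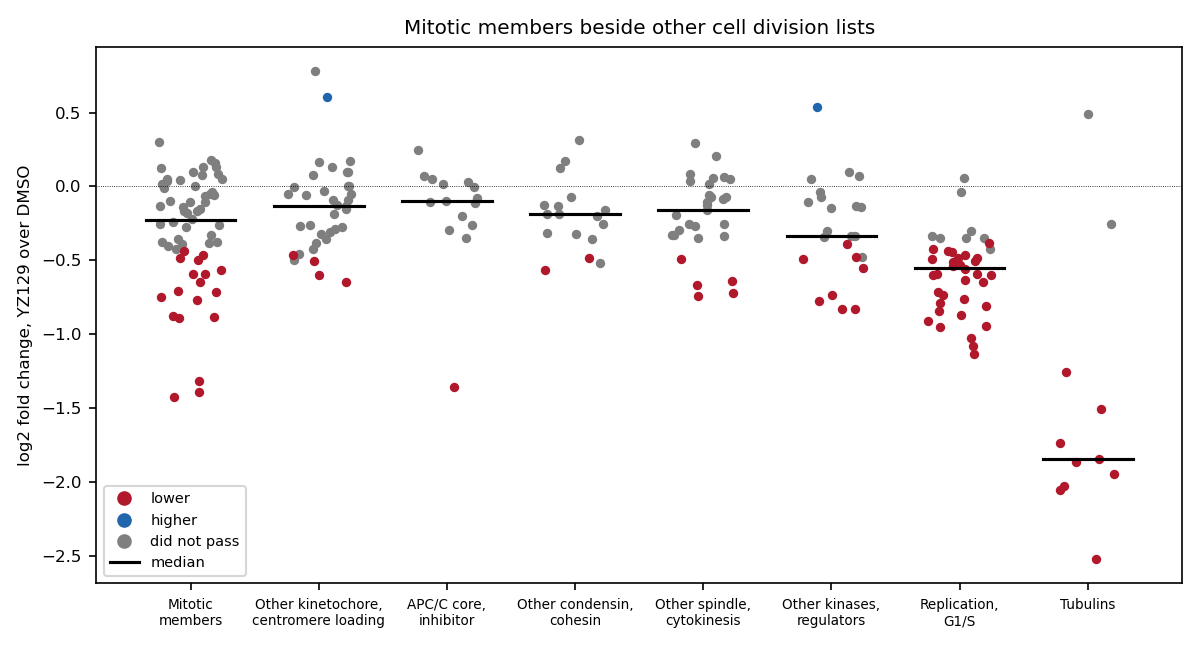
Log2 fold change (YZ129 over DMSO) of each tested gene in the mitotic list and in 7 other cell division lists; a point is a gene, a bar the median. The mitotic members run from -1.42 to 0.30 with a median of -0.23, beside -0.55 for replication genes and -1.84 for tubulins.

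Set beside the mitotic members, DNA replication genes and tubulins had lower medians. Replication and G1/S genes numbered 40, of which 32 passed (80.0%), all of them lower, and their median was -0.55. Of all tested genes 7.64% fell. Tubulins, the building blocks of the spindle, gave 9 falls and 0 rises among 11 tested, with a median of -1.84. Both lists were chosen with earlier results of these data known, and the replication list does not hold every replication gene. The differences between these lists and the mitotic members were not tested.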

How the data were processed

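Poly(A)-selected RNA of U87 cells was sequenced, with 2 libraries per group assigned by their titles. Tools in the submitters' processing notes are Cuffdiff, Cufflinks 2.2.1 and TopHat2 2.0.12, with the build hg19; no source used here gives the read counter or annotation. The authors deposited 1 table, with DESeq2 columns per the file headers. The deposited mean level is a signal that the authors made by dividing reads by size factors, not by gene length. The authors also deposited a log2 fold change with its SE, a Wald score, and a p-value with its Benjamini-Hochberg adjustment over 14812 genes. The other 4937 genes, none above a mean level of 9.43, lacked an adjusted p-value and stayed out of tests. Recomputing the score from fold change and SE, and the p-value from the score, gave the deposited values. The lowest deposited mean levels were sums of 8 read steps (1153 of 1153 genes below 5 steps, tolerance 1e-07), hence 8 libraries. Genes with 2 reads in 1 library and none elsewhere had a median change between -0.55 and 0.51 by library, and near 0 for 4 of the 8. The folds had therefore been moderated, which understates changes, by an amount not measured at the members' mean levels. Depth in reads, and so intervals on counts, was not analysed here.

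Calls, counts and medians are the authors' test; 95% intervals, centring and adjustments were computed with Python 3.11.15, pandas 2.3.3 and scipy 1.17.1, and the code was tested on simulated data. Alternatives were other thresholds, filters, centrings and adjustments. Members that passed are all named, others by the smallest and largest adjusted p in a role group or to complete a complex; of the other lists, up to 5 genes each way. Members, lists and the reading of the direction were chosen with earlier results of these data known.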

Additional observations from a re-analysis of the deposited data

How the results depend on the processing

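No paired analysis was possible because the table holds no values per library, and leaving out a replicate was not run for the same reason. The count of 18 members lower became 13 at an adjusted p under 0.01, 23 under 0.1, 12 by Benjamini-Yekutieli and 14 after centring on the median of all tested genes or within 10 bins of mean level; without a filter, or with a mean level of at least 100, the same 18 passed. It became 3 when a log2 change of at least 1 was asked for and 8 by Bonferroni. Calls lost under centring were CENPM, SPC25 and KIF15 in both ways, SPC24 in the first and NCAPH in the second. No member was higher under any of these except within bins, where the count was 1, AURKA (0.46, adjusted p = 0.0126). The members' median of -0.23 became -0.18 and -0.09 under the 2 centrings. Members that did not pass and changed sign on the median of all genes were UBE2S (0.0367), PTTG1 (0.0114) and ECT2 (0.0025), and within bins UBE2S (0.143), BIRC5 (0.0894), PTTG1 (0.0775), ECT2 (0.0686), BUB1 (0.0555), KIF23 (0.0119), KIF20A (0.0104) and CENPF (0.0054). Over all tested genes, 1132 lower and 776 higher became 698 and 446 at 0.01, 174 and 239 with a change of at least 1, 583 and 367 by Benjamini-Yekutieli and 301 and 163 by Bonferroni. The share of calls that were lower was 59.3%, against 48.1% and 46.6% under the 2 centrings and 42.1% with a change of at least 1.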

Other observations

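Among the members the falls lay mostly at lower mean levels. Of the 30 members with the lower mean levels 13 fell, and of the 30 with the higher ones 5 fell. Of the 10 with the lowest levels 7 fell, and of the 10 with the highest 1, which was TOP2A. Over all tested genes the median change went from -0.04 in bin 4 of 10 bins of mean level, which holds the lowest member, to -0.16 in the highest. A median is a different measure from a count of falls, and the share of all genes that fell in each bin was not computed. The mean level is not divided by gene length, and this split was made after the values were seen and was not tested.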
